A study of Mus musculus with 17 samples.

Results

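The meiotic chromosome axis and recombination genes considered here are *Sycp1*, *Syce2*, *Sycp2*, *Sycp3*, *Hormad1*, *Rec8*, *Stag3*, *Smc1b*, *Spo11* and *Dmc1*, 10 of the 23891 gene symbols in the files. They were chosen by symbol, and each was followed through its RefSeq transcript with the highest mean FPKM (fragments per kilobase of transcript, scaled to the sequencing depth) over all samples. In meiotic prophase, cohesin complexes with meiosis-specific subunits organise each chromosome into loops along a protein axis. SPO11 cuts the DNA, DMC1 carries the broken ends into the homologous chromosome, and the synaptonemal complex zips the paired axes together. These genes are known for their expression in germ cells from the onset of meiosis, and mitotically dividing cells use other cohesin subunits.

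RNA was sequenced from 17 samples of 6 cell types: 4 lines of spermatogonial stem and progenitor cells (SSCs), 6 lines of multipotent adult spermatogonial-derived stem cells (MASCs, ESC-like cells that arise when SSCs convert in culture), 2 lines of embryonic stem cells (ESCs), 2 lines of induced pluripotent stem (iPS) cells, 2 cultures of haematopoietic stem and progenitor cells (HSCs) and 1 sample of mouse embryonic fibroblasts (MEFs). SSC lines 1 and 2 were from Oct4-GFP mice, SSC line 3 from C57Bl/6J and SSC line 4 from 129mix mice, and all came from adult testis and were grown on MEF feeder cells with GDNF, bFGF and EGF. MASC lines 1 and 2 were Oct4-GFP, lines 3 and 4 were 129mix and lines 5 and 6 were Gt(ROSA26)Sor-lacZ. ESC line 1 was Oct4-GFP and ESC line 2 was 129mix. MASCs, ESCs and iPS cells were kept on MEF feeders with LIF and used within 20 passages. MASC lines began as ESC-like colonies picked by hand from long-term SSC cultures, and MASC and ESC lines were subcloned. The iPS lines were 129mix and came from E13.5 MEFs carrying the tetO-4F2A cassette and H3.3B-HA, reprogrammed with 2 µg/ml doxycycline. The MEF sample came from E13.5 H3.3B-HA embryos of the 129mix background. The HSCs were C57Bl/6J bone marrow cells without lineage markers, expanded on E4ORF1-HUVEC endothelial feeders with Kit ligand. Whether the lines of a cell type go back to separate mice is not stated for each, so p-values measure the spread between these lines.

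The sums of the defining markers went with the labels. The summed FPKM of 6 spermatogonial genes (*Zbtb16*, *Gfra1*, *Id4*, *Sall4*, *Ddx4*, *Dazl*) was between 496 and 540 in SSC lines. It was between 68.8 and 96.8 in MASC lines. *Sall4* by itself did not follow the labels, with 22.03 to 63.1 FPKM in SSC lines and 47.4 to 68.05 FPKM in MASC lines. It was the largest part of the sum in every MASC line. The other 5 genes were lower on average in MASC lines. The summed FPKM of 5 pluripotency genes was between 7.38 and 113 in SSC lines and between 1043 and 1391 in MASC lines. Fibroblast genes varied widely within cell types, with a sum over 6 genes of 30.9 to 747 in SSC lines, 18.6 to 823 in MASC lines and 5995 in the MEF sample. In the MEF sample, the followed transcripts of the 10 meiotic genes summed to 1.99 FPKM and all were under 1 FPKM. Summed over its 4 transcripts, *Syce2* had 6.85 FPKM there. The part of feeder RNA in the levels of the other samples was not tested. Between 13532 and 16272 transcripts per sample reached 1 FPKM, and a transcript at 1 FPKM had a coverage of 1.26 to 3.23 reads per base.

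The promoters of 4 of the genes are shown because 2 of them, *Sycp2* and *Smc1b*, had the largest differences between SSC and MASC lines and the other two, *Sycp3* and *Hormad1*, did not pass the test. Each is the 250 bases before the RefSeq start site on GRCm38.p6, 5′ to 3′ on the gene's strand. Capitals mark matches on either strand to CACGTG, an E-box bound by factors such as MAX and MGA, or to GCGGGAA, a site of E2F factors. The *Sycp2* window (chr2:178407659-178407908, minus strand) holds neither and has 7 CG dinucleotides.
Sycp2: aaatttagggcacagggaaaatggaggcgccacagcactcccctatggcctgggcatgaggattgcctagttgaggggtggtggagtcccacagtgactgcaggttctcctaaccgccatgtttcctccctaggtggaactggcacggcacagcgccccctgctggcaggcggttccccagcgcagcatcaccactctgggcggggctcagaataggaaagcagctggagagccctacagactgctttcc
The *Smc1b* window (chr15:85131958-85132207, minus strand) holds GCGGGAA once, on the opposite strand, and 25 CG dinucleotides.
Smc1b: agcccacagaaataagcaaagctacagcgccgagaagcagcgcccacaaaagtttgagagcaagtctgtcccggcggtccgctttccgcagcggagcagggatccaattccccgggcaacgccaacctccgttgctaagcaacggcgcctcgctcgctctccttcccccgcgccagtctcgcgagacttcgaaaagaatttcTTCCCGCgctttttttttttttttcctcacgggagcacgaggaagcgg
The *Sycp3* window (chr10:88459337-88459586, plus strand) holds CACGTG at 2 places, GCGGGAA at 1 place and 12 CG dinucleotides.
Sycp3: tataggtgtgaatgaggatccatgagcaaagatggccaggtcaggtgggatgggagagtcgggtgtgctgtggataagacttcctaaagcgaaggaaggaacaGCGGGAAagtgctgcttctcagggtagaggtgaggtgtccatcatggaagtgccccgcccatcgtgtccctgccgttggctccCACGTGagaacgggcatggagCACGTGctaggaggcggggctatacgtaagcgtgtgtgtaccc
The *Hormad1* window (chr3:95559427-95559676, plus strand) holds CACGTG at 2 places, GCGGGAA at 1 place and 19 CG dinucleotides.
Hormad1: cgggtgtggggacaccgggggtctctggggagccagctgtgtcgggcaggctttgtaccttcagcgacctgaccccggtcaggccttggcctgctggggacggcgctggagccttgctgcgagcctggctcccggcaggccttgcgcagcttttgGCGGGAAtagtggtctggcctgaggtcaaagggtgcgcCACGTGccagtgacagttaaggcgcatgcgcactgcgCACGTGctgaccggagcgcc
Of the 10 genes, 9 had a window in the table, and *Spo11* was not among them. CACGTG was found for 5 of the 9 (*Sycp1*, *Syce2*, *Sycp3*, *Hormad1*, *Stag3*) and GCGGGAA for 4 (*Syce2*, *Sycp3*, *Hormad1*, *Smc1b*). The 9 genes had 11 windows, and a gene was counted when any of its windows held the motif. Over all 32851 windows of this length, each counted by itself, 6.02% held CACGTG and 3.82% held GCGGGAA. These shares were not matched for CG content. *Sycp2*, *Rec8* and *Dmc1* had neither, like 90.5% of all windows. The median window had 6 CG dinucleotides, and the windows of the 9 genes had 7 to 26. The genes that fell and those that did not were found on both sides of each motif. These matches describe letters in the windows and were not tested as binding sites.

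Levels in SSCs were high for most of the genes. Of the 10 followed transcripts, between 9 and 10 reached 1 FPKM in each SSC line and between 7 and 8 in each MASC line. The count was 8 in each ESC and iPS line, between 2 and 3 in each HSC culture and 0 in the MEF sample. The summed FPKM of these 10 transcripts was 196 to 429 in SSC lines and 40.5 to 91.4 in MASC lines. It was 82.7 to 114 in ESC lines, 86.6 to 117 in iPS lines and 32.3 to 40.0 in HSC cultures. The plot of the genes by sample shows that the drop from SSCs was not shared evenly by the genes.

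**Figure D1:**
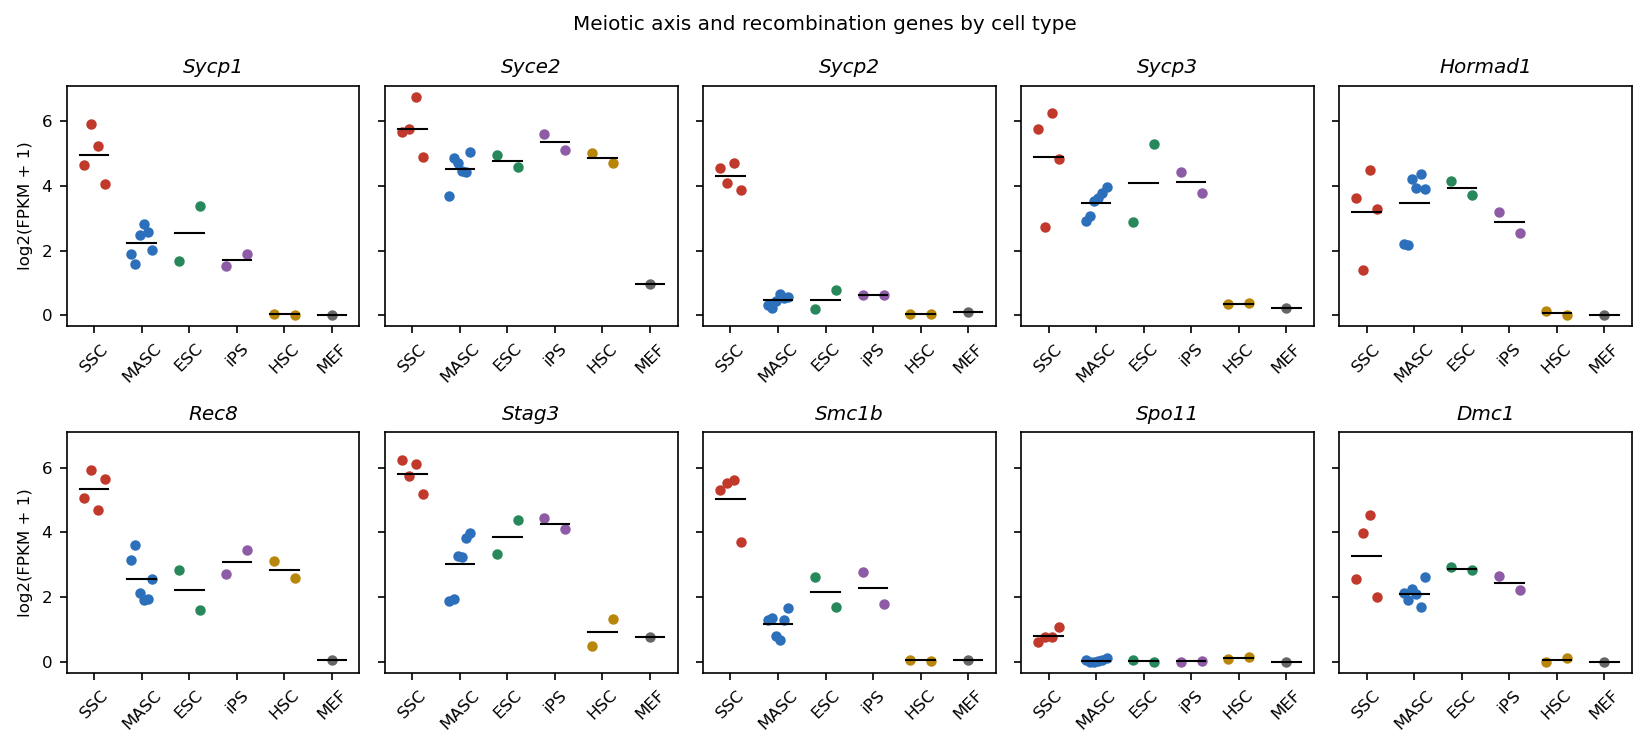
Level of each gene as log2(FPKM + 1) in every sample (points, in order of line number) of the 6 cell types, with the mean of each cell type as a bar. *Sycp2*, *Smc1b*, *Rec8*, *Stag3* and *Sycp1* are higher in all 4 SSC lines than in any MASC line, and *Hormad1* and *Sycp3* overlap.

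SSC and MASC lines were compared with limma on log2(FPKM + 1) with 1 model for all 12 lines of SSCs, MASCs and ESCs, and a transcript was called when its p, with the Benjamini-Hochberg adjustment over 32661 transcripts, was under 0.05 and its log2 difference was at least 1. By this rule 6 of the 10 genes fell and 0 rose in MASC lines, where 9.6% of all transcripts tested were called lower and 6.04% higher. The 6 were *Sycp1*, *Syce2*, *Sycp2*, *Rec8*, *Stag3* and *Smc1b*, so that all 3 meiotic cohesin subunits and both synaptonemal complex genes fell, with 1 of the 3 axis genes and neither of the recombination enzymes. The median difference of the 10 was -2.08 on the log2 scale, and that of all transcripts was -0.00. Among the 20119 transcripts with at least 1 FPKM in at least 2 samples, the median was -0.12, which is small beside the differences called. In these bulk samples, fewer cells with a transcript and less of it per cell cannot be told apart.

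All 3 meiotic cohesin subunits fell. *Smc1b*, the meiotic SMC subunit, had 38.4, 45.1, 48.6 and 12.03 FPKM in SSC lines 1 to 4. In the 6 MASC lines its lowest, median and highest levels were 0.59, 1.45 and 2.19 FPKM. SSC line 4 was the lowest of its group and still stood well above every MASC line. *Smc1b* fell by 3.86 on the log2(FPKM + 1) scale (SE 0.40, adjusted p = 7.2e-05, limma). *Rec8*, the meiotic kleisin that closes the cohesin ring, had 32.2, 60.2, 24.8 and 49.2 FPKM in SSC lines 1 to 4. MASC lines had 2.76 (lowest), 4.16 (median) and 11.1 FPKM (highest), and the groups did not overlap. *Rec8* fell by 2.78 (log2 scale, SE 0.43, adjusted p = 0.00083, limma). *Stag3*, the meiotic SA subunit, had the highest level per length of the 10 transcripts followed in SSC line 1, with 74.9 FPKM. It had 52.2, 68.0 and 35.7 FPKM in lines 2 to 4. MASC lines had 2.71 (lowest), 8.53 (median) and 14.7 FPKM (highest), again with no overlap. *Stag3* fell by 2.80 (log2 scale, SE 0.48, adjusted p = 0.0017, limma).

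The genes for the cohesin subunits of mitotic cells did not pass the rule. All 5 (*Smc1a*, *Smc3*, *Rad21*, *Stag1*, *Stag2*) were measured, and 0 were called in either direction, with a median difference of -0.53 on the log2 scale (-0.89 after quantile normalization). At an unadjusted p under 0.05, 3 of them were lower and 0 higher (limma). *Smc1a*, the counterpart of *Smc1b*, had 24.6 to 37.9 FPKM in SSC lines and 29.9 to 34.7 FPKM in MASC lines. The ratio of *Smc1b* to *Smc1a* was thus 0.449 to 1.79 in SSC lines and 0.017 to 0.0642 in MASC lines. *Rad21*, the counterpart of *Rec8*, had 118 to 185 FPKM in SSC lines and 81.2 to 123 FPKM in MASC lines, a log2 difference of -0.53 (SE 0.17, adjusted p = 0.038, limma) that was under the size required. The ratio of *Rec8* to *Rad21* was 0.21 to 0.37 in SSC lines and 0.023 to 0.137 in MASC lines. *Stag1*, a counterpart of *Stag3*, had a difference of -0.97 (log2 scale, SE 0.18, adjusted p = 0.0022, limma), just under the size required, and every MASC line was below every SSC line. The plot of these genes with their counterparts shows the meiotic subunits apart from the mitotic ones in MASC lines, and *Stag3* beside *Stag1*.

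**Figure D2:**
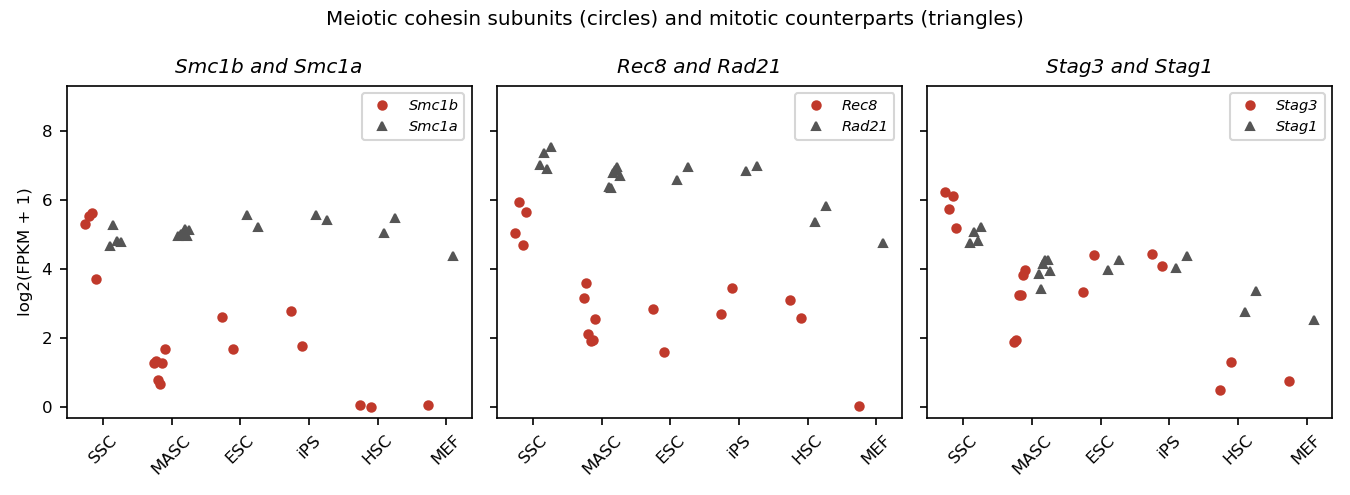
Level as log2(FPKM + 1) of 3 meiotic cohesin subunits (circles) and of a mitotic counterpart of each (triangles) in every sample of the 6 cell types. *Smc1a* stays between 24.6 and 46.8 FPKM in SSC, MASC, ESC and iPS lines, while *Smc1b* goes from 12.03 to 48.6 FPKM in SSC lines to 0.59 to 2.19 FPKM in MASC lines.

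Among the genes of the axis, *Sycp2* separated the cell types most sharply. *Sycp2*, a lateral element protein that forms the axis with SYCP3, had 22.6, 15.9, 25.3 and 13.7 FPKM in SSC lines 1 to 4. No MASC line reached 1 FPKM, with 0.18 (lowest), 0.41 (median) and 0.59 FPKM (highest). *Sycp2* fell by 3.85 on the log2(FPKM + 1) scale (SE 0.18, adjusted p = 8.2e-07, limma), with the smallest error of the 6 genes called, and the pseudocount makes this an understatement at such low levels. The ESC lines (0.14 and 0.72 FPKM) and the iPS lines (0.54 and 0.55 FPKM) were in the range of the MASC lines or next to it.

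*Sycp3*, the partner of SYCP2 in the lateral element, was measured differently. It had 52.7, 5.63, 75.2 and 27.7 FPKM in SSC lines 1 to 4, and 6.53 (lowest), 10.99 (median) and 14.5 FPKM (highest) in MASC lines. SSC line 2 was thus below all 6 MASC lines, and the other 3 SSC lines were above them. The difference was -1.41 on the log2 scale (95% interval -2.97 to 0.14, adjusted p = 0.16, limma). Without SSC line 2 it was -2.13 with an adjusted p of 0.015 (limma), so 1 line decides the call. The *Sycp3* locus (chr10:87922332-87935981 on mm9) overlaps *Chpt1* by 424 bases, and whether the counting used strand is not stated, so that reads there may belong to either gene.

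*Hormad1*, which marks axes that have not yet synapsed, showed no fall. It had 11.4, 1.67, 21.5 and 8.70 FPKM in SSC lines 1 to 4, and 3.56 (lowest), 14.2 (median) and 19.8 FPKM (highest) in MASC lines. Levels overlapped throughout, and SSC line 2 was again the lowest. The difference was 0.27 on the log2 scale (95% interval -1.23 to 1.76, adjusted p = 0.86, limma), and it was -0.33 without SSC line 2. The interval leaves room for a change of either sign. *Hormad1* has 4 transcripts in the files, 1 of them near 0 in every sample, and the transcript followed here held 62.3% to 82.4% of the summed FPKM in SSC lines and 58.5% to 63.8% in MASC lines. Summed over transcripts, *Hormad1* had 2.68 to 29.0 FPKM in SSC lines and 5.58 to 34.0 FPKM in MASC lines.

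The 2 genes of the synaptonemal complex proper fell by different amounts. *Sycp1*, the transverse filament that bridges the axes, had 24.2, 59.8, 36.5 and 15.5 FPKM in SSC lines 1 to 4. MASC lines had 1.98 (lowest), 3.79 (median) and 6.03 FPKM (highest), with no overlap. *Sycp1* fell by 2.74 (log2 scale, SE 0.44, adjusted p = 0.0011, limma). *Syce2*, a protein of the central element, had 49.6, 53.1, 107 and 28.9 FPKM in SSC lines 1 to 4. MASC lines had 11.9 (lowest), 22.9 (median) and 32.4 FPKM (highest), so that SSC line 4 lay within the range of the MASC lines. *Syce2* fell by 1.23 (log2 scale, SE 0.36, adjusted p = 0.026, limma), the smallest fall of the 6. The adjusted p was 0.05003 without SSC line 1, 0.052 without line 2 and 0.059 without line 3 (limma), each just past the threshold. These values are for the transcript followed, 1 of 4, which held 45.3% to 58.8% of the summed FPKM in SSC lines. In MASC lines it held 48.0% to 63.5%. Summed over transcripts, *Syce2* had 63.9 to 182 FPKM in SSC lines and 24.9 to 59.7 FPKM in MASC lines, with no overlap. *Syce2* also overlaps *Gcdh* by 1060 bases (locus chr8:87396010-87411345 on mm9), with the same doubt about strand.

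The enzymes of recombination were at lower levels. *Spo11*, which makes the DNA breaks, had 0.53, 0.69, 0.72 and 1.13 FPKM in SSC lines 1 to 4, and at most 0.085 FPKM in MASC lines. The 2 groups did not overlap, and the difference of -0.77 (log2 scale, SE 0.08, adjusted p = 5.5e-05, limma) passed the test but not the size required, which the pseudocount of 1 makes hard to reach at this level. With a pseudocount of 0.1 it was -2.74 and was called. Only SSC line 4 reached 1 FPKM, so this difference rests on few reads. Summed over its 3 transcripts, *Spo11* had 1.07 to 1.76 FPKM in SSC lines and at most 0.085 in MASC lines.

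*Dmc1*, the meiotic recombinase, had 4.89, 14.7, 22.03 and 2.97 FPKM in SSC lines 1 to 4. MASC lines had 2.21 (lowest), 3.29 (median) and 5.10 FPKM (highest). SSC lines 2 and 3 were above all MASC lines, and lines 1 and 4 lay among them. The difference was -1.15 (log2 scale, 95% interval -2.17 to -0.14, adjusted p = 0.085, limma). It was called without SSC line 4 (-1.58, adjusted p = 0.016) and when the 3 transcripts of the gene were summed (-1.30, adjusted p = 0.013, limma). The sums were 6.10 to 24.4 FPKM in SSC lines and 3.33 to 5.57 FPKM in MASC lines, with no overlap.

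Every MASC line was below every SSC line for 6 of the 10 transcripts followed (*Sycp1*, *Sycp2*, *Rec8*, *Stag3*, *Smc1b* and *Spo11*), as it was for 15.4% of all transcripts. With transcripts summed per gene, *Syce2* and *Dmc1* did not overlap either. Of the 6, the 5 that were called were called in each of the 21 fits made, those with other settings or with a line left out included. The plot of differences from SSC lines gives them with their intervals beside those of the ESCs and HSCs.

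**Figure D3:**
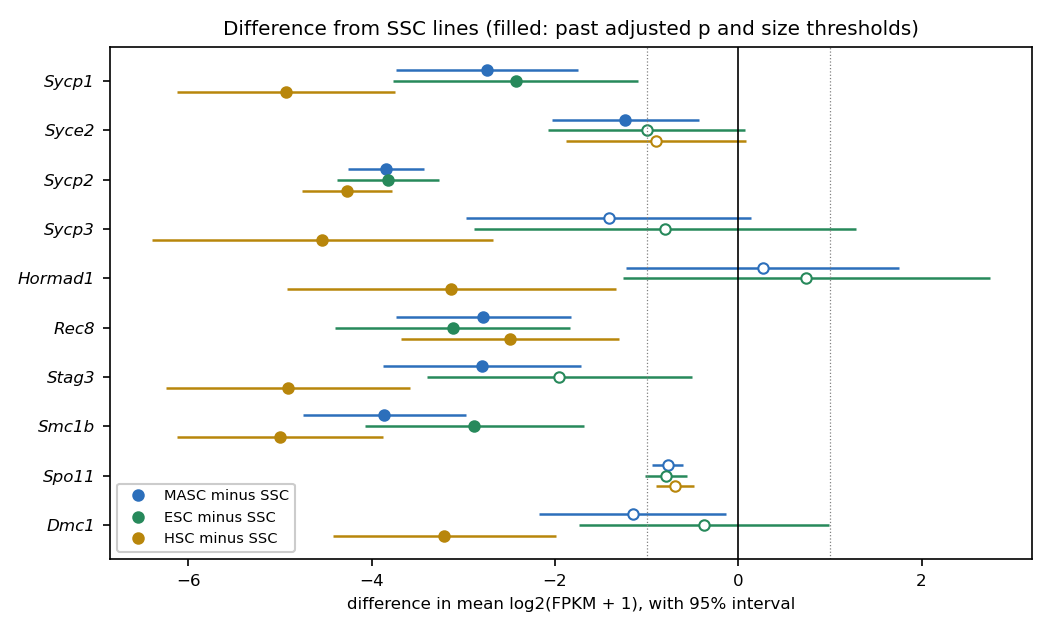
Difference from SSC lines in mean log2(FPKM + 1) for each gene in MASC, ESC and HSC samples, with 95% intervals from limma. Filled points passed the adjusted p and the size of 1 (dotted lines), and all 3 comparisons share the same 4 SSC lines.

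The SSC lines did not rank alike for all genes. SSC line 2 had the highest *Sycp1* and *Rec8* of the 4 lines and the lowest *Sycp3* and *Hormad1*. SSC line 3 had the highest *Syce2*, *Sycp2*, *Sycp3*, *Hormad1*, *Smc1b* and *Dmc1*, and SSC line 4 the lowest *Sycp1*, *Syce2*, *Sycp2*, *Stag3*, *Smc1b* and *Dmc1*. The fibroblast genes summed to 747 FPKM in SSC line 3, 309 in line 1, 69.5 in line 4 and 30.9 in line 2. The MEF sample had under 1 FPKM of the followed transcript of each of the 10 genes, but 6.85 FPKM of *Syce2* over all its transcripts. The part of feeder RNA in this spread was not tested.

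The MASC lines also differed among themselves. *Stag3* was at 2.71 and 2.87 FPKM in the Oct4-GFP MASC lines and at 8.45 to 14.7 FPKM in the other 4. *Hormad1* was at 3.56 to 3.61 FPKM in these lines and at 13.9 to 19.8 FPKM in the others, whereas *Rec8* was higher in them, at 7.89 and 11.1 FPKM against 2.76 to 4.94 FPKM. The same lines had the most fibroblast RNA of the MASC lines (823 and 126 FPKM summed, against 18.6 to 40.9), and strain and line cannot be told apart with 2 lines each.

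ESC lines were compared with SSC lines in the same fit. Of the 10 genes, 4 fell and 0 rose, where 8.75% of transcripts were called lower and 4.96% higher. They were *Sycp2* with a log2 difference of -3.82 (SE 0.25, adjusted p = 1.2e-05), *Rec8* with -3.11 (SE 0.57, adjusted p = 0.0038), *Smc1b* with -2.88 (SE 0.53, adjusted p = 0.0040) and *Sycp1* with -2.43 (SE 0.59, adjusted p = 0.016), all by limma. *Stag3*, at 9.13 and 20.1 FPKM in the ESC lines, was below every SSC line and missed the threshold (log2 difference -1.95, 95% interval -3.40 to -0.50, adjusted p = 0.059, limma), but it was called in 5 of the 21 fits. The 2 ESC lines differed from each other, with 6.42 and 38.3 FPKM for *Sycp3* and 2.20 and 9.49 FPKM for *Sycp1*. Without ESC line 2, the count fell from 4 to 2 genes, since *Rec8* and *Smc1b* then had an adjusted p of 0.052 each (limma). Without ESC line 1, *Sycp1* was no longer called (adjusted p = 0.17, limma).

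MASC lines were then set against ESC lines. Of the 10 genes, 0 were called by limma, where 0.00306% of transcripts were called higher and 0.0153% lower. For *Smc1b*, the 6 MASC lines (0.59 to 2.19 FPKM) were all below the ESC lines (5.19 and 2.23 FPKM), with a log2 difference of -0.98 (95% interval -2.11 to 0.14, adjusted p = 1, limma). *Dmc1* was likewise lower in each MASC line than in either ESC line (6.58 and 6.20 FPKM), with a log2 difference of -0.78 (95% interval -2.06 to 0.51, adjusted p = 1, limma). Such a lack of overlap downward was seen for 2.2% of all transcripts. The intervals of the other 8 genes also spanned 0, and 0 of the 10 had an unadjusted p under 0.05. With 2 ESC lines the intervals were wide, from -2.58 to 1.35 for *Sycp3* and from -0.55 to 0.50 for *Sycp2*, so that this does not show equal levels.

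The iPS lines are pluripotent cells made from fibroblasts instead of germ cells, and they entered a fit over 16 samples with the HSC cultures. Compared with SSC lines, 4 of the 10 genes fell and 0 rose, where 9.56% of transcripts were called lower and 5.77% higher. *Sycp2* fell by 3.68, *Sycp1* by 3.26, *Smc1b* by 2.75 and *Rec8* by 2.25 on the log2 scale (adjusted p = 8.0e-07, 0.00098, 0.0021 and 0.0099, limma). The MASC, ESC and iPS comparisons share the 4 SSC lines and are not independent of each other. Between iPS and ESC lines, 0 of the 10 genes were called by limma and 0 had an unadjusted p under 0.05 (0.0551% of transcripts were called higher, 0.0612% lower), and *Stag3* (16.2 and 20.6 FPKM), *Sycp3* (12.9 and 20.5 FPKM), *Hormad1* (4.83 and 8.23 FPKM) and *Dmc1* (3.62 and 5.29 FPKM) were all present in iPS lines.

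HSCs had little RNA of most of these genes. Compared with SSC lines, 8 of the 10 fell and 0 rose, where 14.2% of transcripts were called lower and 8.75% higher. *Sycp1* fell by 4.93, *Stag3* by 4.91 and *Sycp3* by 4.54 on the log2 scale (adjusted p = 2.4e-05, 6.0e-05 and 0.0013, limma). *Smc1b* was at 0.010 and 0.048 FPKM in the HSC cultures. *Syce2* was the exception in level, with 25.3 and 31.5 FPKM in HSCs, a log2 difference of -0.90 (95% interval -1.88 to 0.08, adjusted p = 0.15, limma). *Rec8* fell in HSCs by 2.49 (log2 scale, adjusted p = 0.0036, limma) but was still at 4.97 and 7.59 FPKM, in the range of the MASC lines. *Stag3* reached 0.42 and 1.48 FPKM, and each of the other 7 genes was under 1 FPKM in both HSC cultures.

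MASC lines were also compared with the HSCs, a somatic culture. In MASC lines 5 of the 10 genes were higher and 0 lower, where 11.2% of transcripts were called higher and 9.64% lower. *Hormad1* was higher by 3.40 on the log2 scale, *Sycp3* by 3.13, *Sycp1* by 2.19, *Stag3* by 2.12 and *Dmc1* by 2.05 (adjusted p = 0.0050, 0.010, 0.0058, 0.014 and 0.010, limma). *Rec8* had a difference of -0.29 (95% interval -1.41 to 0.83) and *Syce2* of -0.34 (95% interval -1.26 to 0.59). With 2 HSC cultures the count depended on each, and it was 2 without HSC culture 1 and 3 without HSC culture 2.

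Ordered by mean level, SSCs came first for 9 of the 10 genes and ESCs for *Hormad1*. For *Sycp1*, *Sycp2*, *Rec8*, *Stag3*, *Smc1b* and *Spo11*, the SSC lines did not overlap the next cell type. For *Sycp1*, the order below SSCs was ESCs, MASCs and iPS lines, whose ranges overlapped between neighbours, and then HSCs and the MEF sample near 0. For *Sycp3* the neighbours SSCs, iPS lines, ESCs and MASCs all overlapped, and for *Hormad1* the neighbours ESCs, MASCs, SSCs and iPS lines did so too.

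Genes of the same pathway were counted from lists by function. Of 7 further axis and synaptonemal complex genes, 5 fell in MASC lines and 0 rose, with a median log2 difference of -2.38. *Syce3*, of the central element, fell by 3.79 (adjusted p = 0.00017), the kleisin *Rad21l* by 3.27 (adjusted p = 6.3e-06) and *Hormad2* by 1.57 (adjusted p = 0.0012, limma). *Trip13*, the ATPase that removes HORMA domain proteins, had a difference of -0.06 (SE 0.21, adjusted p = 0.92, limma). Of 6 genes for break formation, 4 fell and 0 rose, led by *Ccdc36* at -2.26 (adjusted p = 2.2e-06, limma), with a median of -1.34. *Prdm9*, at -1.04, was not called after quantile normalization (-0.83), and 3 of the 6 were then lower.

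The later steps were less uniform. Of 8 crossover genes, 4 fell and 0 rose, with a median of -1.24. *Tex11* fell by 3.78 (log2 scale, adjusted p = 7.6e-06, limma), from 35.8 to 72.2 FPKM in SSC lines to 1.56 to 4.34 FPKM in MASC lines. Of 9 strand exchange genes, 1 fell, 1 rose and 7 were not called, with a median of 0.24. *Tex15* fell by 2.94 (adjusted p = 9.3e-05), and *Hsf2bp*, which binds BRCA2, rose by 2.19 (log2 scale, adjusted p = 0.0013, limma), from 0.40 to 5.04 FPKM in SSC lines to 8.02 to 15.0 FPKM in MASC lines. The background for these lists is the 9.6% lower and 6.04% higher given above, and none was tested as a set.

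**Figure D4:**
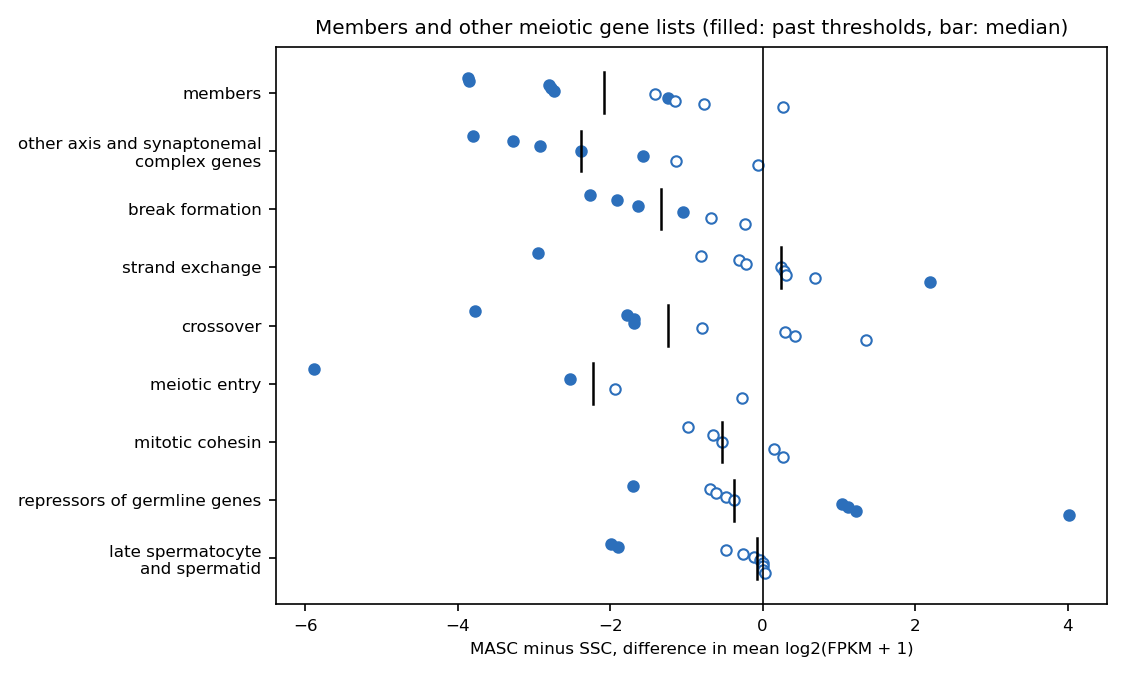
Difference between MASC and SSC lines in mean log2(FPKM + 1) for the 10 genes and for 8 further lists, with 1 point per gene, filled where it passed both thresholds, and the median of each list as a bar. Points of the axis lists lie mostly to the left of 0, and those of mitotic cohesin and strand exchange lie around it.

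Of 4 genes of meiotic entry, 2 fell and 0 rose. *Dazl*, an RNA-binding protein that licenses germ cells for meiosis, fell by 5.88 on the log2 scale (adjusted p = 8.7e-06, limma). *Gm1564*, the symbol the files use for *Meioc*, fell by 2.52 (adjusted p = 0.00068, limma). *Stra8*, a target of retinoic acid that starts meiosis, had a difference of -1.93 (SE 0.91, adjusted p = 0.15, limma). Of 9 repressors known to silence germline genes, 4 rose and 1 fell in MASC lines, with a median log2 difference of -0.38. At an unadjusted p under 0.05, 4 were higher and 4 lower (limma). *E2f6* (-0.68, adjusted p = 0.0066) and *Dnmt1* (-0.61, adjusted p = 0.034, limma) were lower by less than the size required. *Dnmt3b*, a DNA methyltransferase, rose by 4.02 (adjusted p = 2.7e-05), *Max* by 1.22, *Pcgf6* by 1.11 and *L3mbtl2* by 1.04 (adjusted p = 7.6e-05, 0.0047 and 0.00098), and *Ehmt2* fell by 1.70 (adjusted p = 0.00041, limma).

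Genes of later spermatogenesis were mostly low, and 6 of the 10 on this list were under 1 FPKM in all 4 SSC lines. The 10 genes summed to 15.7 to 31.0 FPKM in SSC lines and 4.25 to 7.32 FPKM in MASC lines. *Tnp1*, a transition protein of spermatids, was listed at 0 in all 17 samples, and *Prm1*, a protamine, had at most 0.53 FPKM in any SSC line. *Hspa2* had 11.8 to 16.2 FPKM in SSC lines, but also 13.1 and 9.67 FPKM in HSC cultures and 8.97 FPKM in the MEF sample. *Piwil1* had 2.48 to 5.57 FPKM in SSC lines, and *Ldhc* had 10.2 FPKM in SSC line 1. *Hspa2* and *Piwil1* fell (by 1.98 and 1.90 on the log2 scale, adjusted p = 4.9e-05 and 2.5e-05, limma), and the other 8 were not called. Of 4 Sertoli cell genes, *Wt1* and *Sox9* fell (by 2.40 and 1.54, adjusted p = 0.00046 and 0.037, limma). *Sox9* was not called after quantile normalization. *Gata1* and *Amh*, both under 1 FPKM in all 4 SSC lines, had differences of 0.38 and 0.09 and were not called. For *Gata1*, every MASC line was above every SSC line (adjusted p = 0.0035, limma). The list summed to 18.3 to 23.2 FPKM in SSC lines and 2.41 to 8.17 in MASC lines. Of 6 fibroblast genes only *Twist1* fell (by 2.22, adjusted p = 0.00074, limma), and of 5 blood genes 0 were called (1 higher and 1 lower at an unadjusted p under 0.05, limma). Of 4 genes of differentiating spermatogonia only *Sohlh2* was called, and it fell by 3.73 (adjusted p = 6.4e-07, limma). The median difference of these 4 was -1.83, and 3 were lower and 0 higher at an unadjusted p under 0.05 (limma). They summed to 89.8 to 193 FPKM in SSC lines and 7.83 to 49.9 FPKM in MASC lines. The part of these lists in the results for the 10 genes was not tested.

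The genes with the profile most like each of these genes over the 17 samples were sought by Pearson's r on log2(FPKM + 1), among 20119 transcripts with at least 1 FPKM in at least 2 samples. These r describe mostly the differences between the 6 cell types that the samples share. For *Sycp2* they were *Tex101* (r = 0.993), *Rhox10* (0.990) and *Rbm46* (0.989). For *Sycp1* they were *Tex15* (0.979), *Ddx43* (0.974) and *Cdk8* (0.964), and for *Smc1b* they were *Tuba3a* (0.983), *Gpat2* (0.976) and *Mlxipl* (0.976). For *Stag3* they were *Dctd* (0.975), *Rbm44* (0.971) and *Narg2* (0.968), and for *Rec8* they were *Hip1r* (0.940), *Agbl5* (0.938) and *Tubg1* (0.935).

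The genes with less of a fall had other neighbours. For *Syce2* these were *Lbr* (0.907), *Mcm6* (0.905) and *Exosc8* (0.905), for *Hormad1* *Ddx18* (0.939), *BC027231* (0.935) and *Nif3l1* (0.934), and for *Sycp3* *Pdcd2* (0.943), *Cep44* (0.940) and *Polr1c* (0.935). For *Dmc1* they were *Pnma5* (0.924), *Nup93* (0.919) and *4930447C04Rik* (0.916), the last being a synaptonemal complex gene, also known as *Six6os1*. Among the 10 genes themselves, r over the 17 samples ran from 0.108 (*Rec8* and *Hormad1*) to 0.925 (*Spo11* and *Sycp2*).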

How the data were processed

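Total RNA from 17 samples was sequenced after TruSeq library preparation. The authors aligned reads to mm9 with TopHat, removed PCR duplicates and reads with more than 1 location, and ran Cufflinks on RefSeq transcripts with upper-quartile and GC normalization. The authors deposited 1 table per sample with an FPKM for each transcript, the confidence bounds of that FPKM, and its coverage, a signal in reads per base. The submitters' processing notes list TopHat2 2.0.11. No read counts are in the tables used here, so the counting error of a value is unknown and tests rest on the spread between samples.

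Of 33262 rows per sample, 601 are further loci of a transcript and were left out, which leaves 32661 transcripts. Values were used as log2(FPKM + 1), a pseudocount of 1 that understates changes at low levels, with no filter on low values and no further normalization. Groups were taken from the sample titles. Groups were compared with limma 3.58.1 (R 4.3.3; lmFit, contrasts.fit and eBayes) over the 12 SSC, MASC and ESC lines, or over 16 samples where iPS cells or HSCs were compared. All p-values printed are two-sided and adjusted by Benjamini and Hochberg over the transcripts fitted (32661, fewer with the filter), or over the 23891 gene symbols where transcripts were summed. The fit was first tested on simulated data with known changes. Figures were drawn with matplotlib 3.10.9 and other values computed in Python 3.11.15.

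The genes and lists were chosen with earlier results of these data known. The text names the 10 genes, their transcripts and counterparts, the members of each list with the largest differences, and the 3 symbols with the highest r to each gene but *Spo11*. Some values that the rule would name are not reported here. *Rec114* was matched by accession, and 3 list genes (*Rnf212*, *Rnf212b*, *Gm4969*) were not analysed here. Promoters are those of RefSeq on GRCm38.p6 and were not joined to the mm9 positions. Alternatives were a pseudocount of 0.1, a filter (1 FPKM in 2 samples), quantile normalization, a log2 difference of 2 with adjusted or raw p, eBayes with trend and robust estimation, a fit over all 17 samples, a replicate block, a strain block, transcripts summed per gene, each line left out, and strains alone.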

Additional observations from a re-analysis of the deposited data

Results flagged for a closer look

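For the *Dmc1* transcript followed, the MASC lines moved in opposite directions in the 2 strains that have both cell types. Both Oct4-GFP MASC lines (3.33 and 2.76 FPKM) were below both Oct4-GFP SSC lines (4.89 and 14.7 FPKM), a log2 difference of -1.25. Both 129mix MASC lines (3.74 and 3.24 FPKM) were above the 129mix SSC line (2.97 FPKM), a log2 difference of 0.18. The difference between the strains was not tested, and the 129mix value rests on 1 SSC line. With the 3 transcripts of *Dmc1* summed, the opposite directions were not seen. All MASC lines (3.33 to 5.57 FPKM) were then below all SSC lines (6.10 to 24.4 FPKM).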

How the results depend on the processing

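Of the counts of the 10 genes called, 2 moved by over 1.5 times, both when 1 sample was left out. The genes lower in ESC than in SSC lines numbered 2 to 5 over the lines left out (4 with all lines), with the lowest count without ESC line 2, and those higher in MASC lines than in HSCs numbered 2 to 6 (5 with all samples). Those lower in MASC than in SSC lines numbered 5 to 7, those lower in HSCs 7 to 9 and those lower in iPS lines 3 to 4. For MASC against SSC lines the count was 6 with quantile normalization, with trend and robust estimation and over all 17 samples, 7 with a pseudocount of 0.1 or the filter, 8 with transcripts summed and 5 with a log2 difference of 2 or a strain block. The filter removed *Spo11*. With the strain block, *Syce2* (adjusted p = 0.095) and, for ESCs, *Sycp1* (adjusted p = 0.058, limma) lost their calls, and *Stag3* gained one for ESCs (adjusted p = 0.040, limma), so that the ESC count stayed at 4. *Stag3* was also called for ESCs with the filter (0.027), over all 17 samples (0.038) and without MASC line 1 (0.043) or 2 (0.046).

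Replicate numbers recur across cell types but do not pair the samples: the deviations from the group means had a mean r of 0.05 over 8 pairs with the same number (-0.36 to 0.41) and -0.01 over 36 other pairs. With the replicate block, the count was 5 for MASC and 3 for ESC against SSC lines, with adjusted p = 0.080 for *Syce2* and, for ESCs, 0.14 for *Sycp1* (limma).

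Differences that changed sign were all of genes not called. For MASC against SSC lines, *Hormad1* was -0.070 with the replicate block and between -0.33 (without SSC line 2) and 0.70 over the lines left out. For ESC against SSC lines, *Dmc1* was 0.10 with the strain block and between -0.80 and 0.044 (without SSC line 3) over the lines left out, and *Sycp3* was between -2.001 and 0.40 (without ESC line 1). For iPS against SSC lines, *Hormad1* was between -0.93 and 0.10 (without SSC line 3), and 0.0013 without iPS line 2. Of all transcripts, 1972 were higher and 3137 lower in MASC than in SSC lines. Quantile normalization gave 2340 and 2427, a pseudocount of 0.1 gave 2854 and 4723, and a log2 difference of 2 gave 565 and 697 with adjusted and 590 and 721 with raw p. The cause of these moves was not tested.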
